A study of Mus musculus with 25 samples.

Results

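The genes described here encode the chaperones that a cell makes more of when its proteins unfold in the cytosol and nucleus. They are 10 of the 47729 genes in the deposited count table, taken by their Ensembl identifiers: Hspa1a, Hspa1b, Hsp90aa1, Hsp90ab1, Hspa8, Dnajb1, Hsph1, Hspb1, Bag3 and Hspe1. All 10 passed a filter on low counts that kept 17799 genes. The samples were total RNA from a brain hemisphere of 25 male C57BL/6 mice, with 5 animals and 5 libraries each at 2, 9, 15, 24 and 30 months of age. No other treatment or genotype is labelled, so that the ages are the only groups compared. The titles carry a separate number for each sample, and p-values measure the spread between these samples.

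Heat shock factor 1 (HSF1) is the transcription factor that switches on these genes when chaperones are in short supply, by binding repeated GAA and TTC units called heat shock elements. Hsp70 proteins hold and release unfolded stretches of client proteins, DnaJ proteins bring them clients, Hsp110 and Bag proteins exchange their nucleotide, and Hsp90 then completes the folding of kinases and receptors. Small heat shock proteins keep unfolded proteins soluble, and Hspe1 is the lid of the mitochondrial chaperonin, carried along here because stress induces it with the cytosolic set. In neurons these chaperones are known for handling tau, synuclein and synaptic vesicle coats.

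Library totals ran between 17800113 and 31261121 counts. The neuronal markers Snap25, Syt1 and Rbfox3 summed to at least 3371 CPM (read counts scaled to library size, with TMM factors) in each library, and Mbp of oligodendrocytes, Slc1a3 of astrocytes and Cx3cr1 of microglia were detected at every age, as in brain. In replicates 2 to 5 of 30 months, GC-rich genes lay above GC-poor ones by 1.02 to 1.83 on the log2 scale, against -0.25 to 0.14 in the other 21 libraries. Changes at 30 months are therefore also given with a correction for GC content, or from 30 months replicate 1 alone. In bulk tissue, fewer cells of a type and less RNA per cell cannot be told apart.

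Hspa1a (ENSMUSG00000091971, GRCm38 chromosome 17, 34969190 to 34972156, minus strand) and Hspa1b (ENSMUSG00000090877, chromosome 17, 34956436 to 34959238, minus strand) are tandem copies that encode the inducible Hsp70. Of the 50-base windows along the Hspa1a transcript 58.8% also occur in Hspa1b, so that reads from there cannot be placed with certainty, and the sum of both genes is given beside each of them. Hspa1a supplied 33.2 to 56.9% of that sum across the 25 libraries. Their promoters are nearly the same as well. The stretches below run 5′ to 3′ on the gene's strand, from RefSeq on GRCm38.p6, with paired GAA and TTC units (GAANNTTC or TTCNNGAA) in capitals.
Hspa1a promoter, chr17:34972137-34972376, minus strand: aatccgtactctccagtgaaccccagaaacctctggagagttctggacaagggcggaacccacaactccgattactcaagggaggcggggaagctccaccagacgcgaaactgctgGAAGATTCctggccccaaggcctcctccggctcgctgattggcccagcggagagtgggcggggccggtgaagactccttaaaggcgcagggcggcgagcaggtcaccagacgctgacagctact
Hspa1b promoter, chr17:34959219-34959458, minus strand: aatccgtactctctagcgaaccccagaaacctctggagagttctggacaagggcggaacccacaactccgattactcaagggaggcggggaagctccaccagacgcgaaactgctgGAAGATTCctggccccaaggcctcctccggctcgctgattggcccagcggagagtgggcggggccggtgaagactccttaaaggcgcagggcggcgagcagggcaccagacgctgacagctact

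Over the whole window of 300 bases, 250 before the start and 50 after, the copies differed at 4 positions, counted from 1 at the 5′ end, as C44T, T47C, T249G and C276T from Hspa1a to Hspa1b. None of these lies in the paired unit, which begins 104 bases before the start in both. Such a pair occurred in 15.1% of the 32851 RefSeq windows of this length on either strand. Windows with 3 units in a row (GAANNTTC followed by NNGAA, or TTCNNGAA followed by NNTTC), which contain pairs, made up 0.603%. Counted by gene, a pair occurred in 17.0% of 27025 genes and 3 units in 0.662%. Of the 7 chaperone genes in the promoter table, 6 held a pair and 2 held 3 units. Those with 3 units were Hspe1 and Hsph1, shown with Hspb1, which held separate pairs 117 and 97 bases before its start.
Hspe1 promoter, chr1:55088028-55088167, plus strand: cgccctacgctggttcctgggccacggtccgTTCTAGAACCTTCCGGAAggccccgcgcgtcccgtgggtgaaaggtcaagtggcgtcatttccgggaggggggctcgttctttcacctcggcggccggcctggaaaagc
Hsph1 promoter, chr5:149636286-149636385, minus strand: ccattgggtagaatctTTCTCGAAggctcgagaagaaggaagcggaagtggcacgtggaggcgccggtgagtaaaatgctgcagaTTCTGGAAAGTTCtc
Hspb1 promoter, chr5:135887769-135887908, plus strand: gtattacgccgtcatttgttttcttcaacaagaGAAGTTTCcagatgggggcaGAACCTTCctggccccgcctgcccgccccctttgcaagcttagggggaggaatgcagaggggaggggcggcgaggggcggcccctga

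In Hspe1 a pair of overlapping triplets began 89 and 84 bases before the start, and in Hsph1 the triplet began 16 bases after one RefSeq start and 37 after the other. Hspa1a and Hspa1b held no triplet of these exact letters in this window, and units with other letters were not searched. Whether these letters relate to the changes with age was not tested. Bag3 held 1 pair, 43 bases after its start, and both Dnajb1 windows held none. Hsp90aa1, Hsp90ab1 and Hspa8 are named only. These matches describe letters in the reference and no binding was measured.

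The chaperones differed widely in abundance. Per kilobase of exon, in the mean of the 20 libraries of 2 to 24 months, Hsp90ab1, the constitutive cytosolic Hsp90, was highest at 517 CPM per kb. Hspa8, the constitutive Hsc70 that uncoats clathrin vesicles, followed at 74.7, Hsph1, the Hsp110 exchange factor of Hsp70, at 60.2 and Hsp90aa1, the inducible Hsp90, at 49.3 CPM per kb. Dnajb1, the Hsp40 partner of Hsp70, stood at 19.6 and Hspe1 at 10.2 CPM per kb. Bag3, which links Hsp70 to selective autophagy, was at 4.23, Hspb1, a small heat shock protein, at 1.71, Hspa1b at 1.27 and Hspa1a at 0.84 CPM per kb. The lowest and highest libraries of neighbours in this order overlapped for Hspa8 and Hsph1, Hsph1 and Hsp90aa1, Hspb1 and Hspa1b, and Hspa1b and Hspa1a. Hspa1a, Hspa1b and Hspb1 rested on 21 to 175 counts per library, and Hsp90ab1 on at least 27436.

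The other 8 genes are placed as follows in GENCODE M21 (GRCm38). Hsp90ab1 (ENSMUSG00000023944) is at 45567775 to 45573271 of chromosome 17, minus strand, and Hsp90aa1 (ENSMUSG00000021270) at 110690605 to 110702728 of chromosome 12, minus strand. Hspa8 (ENSMUSG00000015656) is at 40800984 to 40810087 of chromosome 9, plus strand, and Dnajb1 (ENSMUSG00000005483) at 83608193 to 83612653 of chromosome 8, plus strand. Hsph1 (ENSMUSG00000029657) and Hspb1 (ENSMUSG00000004951) are both on chromosome 5, Bag3 (ENSMUSG00000030847) on chromosome 7 and Hspe1 (ENSMUSG00000073676) on chromosome 1. Hspa8 shares 45.3% of its 50-base windows with the pseudogene Gm15459 and Hspb1 shares 51.6% with Hsp25-ps1, which were counted at no more than 0.0548 and 0.0811 CPM in any library.

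At 9 months 7 of the 10 chaperones were higher than at 2 months and none was lower, where 7.76% of all genes were higher and 6.79% lower. With any single library left out the count was 4 to 7, and in a fit of all 25 libraries it was 3. Hspa1b and Hspa1a changed most, at 2.79-fold and 2.26-fold of their 2 month levels. The abundant Hspa8 and Hsph1 rose to 1.28-fold and 1.24-fold. By 24 months Hspa8, Hsph1 and Hsp90ab1 stood near their 2 month levels again. Hspa1a and Bag3 were still called higher, at 1.55-fold and 1.38-fold of 2 months. Hspa1b (1.32-fold) and Dnajb1 (0.86-fold) did not pass against 2 months. Bag3 did not fall between 9 and 24 months, and stood above 2 months at each later age.

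**Figure D1:**
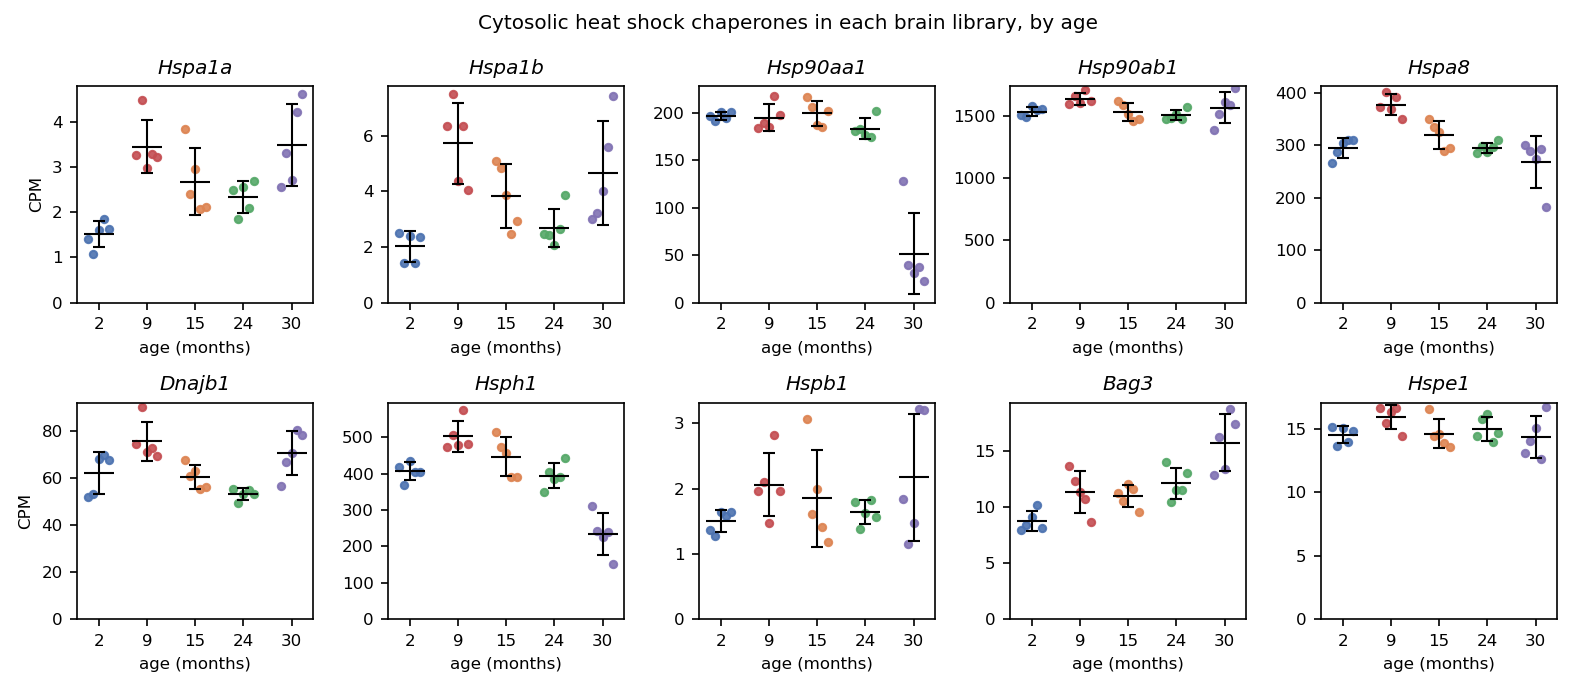
CPM of each chaperone gene in each of the 25 libraries (points) against age in months, with the mean and SD of 5 libraries per age (black). All axes start at 0. Hspa1a, Hspa1b, Hspa8, Dnajb1 and Hsph1 have their highest mean of 2 to 24 months at 9 months, and Hsp90aa1 stands at 22.9 to 39.2 CPM in 4 of the 5 libraries of 30 months.

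The inducible Hsp70 copies showed this course most clearly. The sum of Hspa1a and Hspa1b was 9.63, 11.97, 7.34, 9.65 and 7.28 CPM in the 9 month libraries, against 3.91, 2.50, 4.01, 3.26 and 3.99 CPM in the 2 month libraries. The groups did not overlap, and the lowest 9 month library stood well above the highest of 2 months. The sum rose by a log2 fold change of 1.37 (SE 0.19), with a 95% interval of 0.96 to 1.77 and an edgeR quasi-likelihood adjusted p of 0.000138. Hspa1b averaged 5.72 ± 1.46 CPM at 9 months and 2.02 ± 0.550 CPM at 2 months (SD, n = 5 each; edgeR adjusted p = 0.000457). Hspa1a averaged 3.45 ± 0.594 CPM at 9 months and 1.52 ± 0.294 CPM at 2 months (SD, n = 5 each; edgeR adjusted p = 2.1e-05).

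At 15 months the sum was 8.94, 7.22, 6.81, 4.53 and 5.04 CPM. Replicates 1 to 3 lay near the 9 month range, replicates 4 and 5 below it, and all 5 above the 2 month libraries. The log2 fold change over 2 months was 0.86 (SE 0.20, edgeR adjusted p = 0.00899). At 24 months the sum was 4.95, 4.26, 4.64, 4.75 and 6.56 CPM, all 5 below the 9 month libraries and above those of 2 months. It fell by 0.87 on the log2 scale against 9 months (SE 0.18, edgeR adjusted p = 0.00133). Against 2 months its log2 fold change of 0.50 did not pass (edgeR adjusted p = 0.0884; 95% interval 0.07 to 0.93), although the libraries did not overlap.

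**Figure D2:**
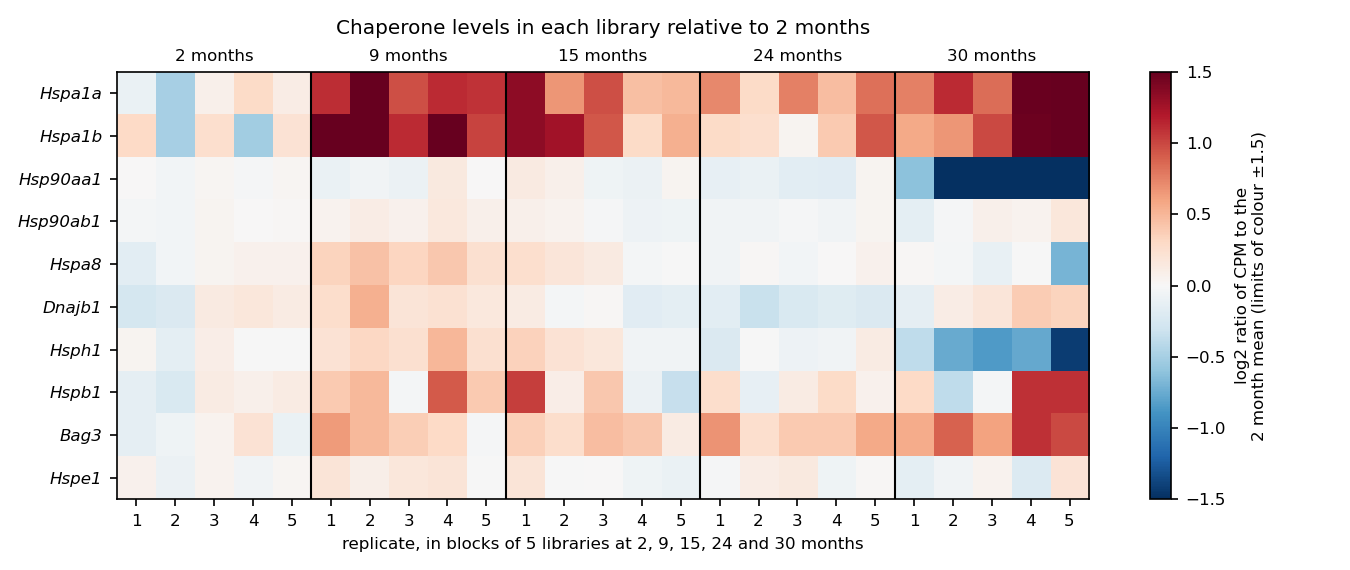
Log2 ratio of CPM to the mean of the 5 libraries of 2 months (colour, limited to ±1.5) for each chaperone (rows) in each library (columns, in blocks by age from 2 to 30 months). The 9 month block is warm in all 5 libraries for Hspa1a, Hspa1b, Hspa8 and Hsph1, the 15 month block is warmer in replicates 1 to 3 than in 4 and 5 for the same genes, and Bag3 is warm in all libraries of 15, 24 and 30 months.

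Among the abundant chaperones, Hspa8 gave 373, 401, 368, 392 and 349.8 CPM at 9 months, against 265, 288, 303, 309.6 and 309.9 CPM at 2 months. No library overlapped, and the log2 fold change was 0.35 (SE 0.05, edgeR adjusted p = 0.000196). Hsph1 gave 473, 506, 479, 575 and 481 CPM at 9 months, against 418, 368, 436, 405 and 406 CPM at 2 months. These groups were also apart, with replicate 4 the highest at 9 months, and the log2 fold change was 0.31 (SE 0.08, edgeR adjusted p = 0.0189). Without 2 months replicate 2 the adjusted p of Hsph1 was 0.0525. The nucleotide exchange factor and the constitutive Hsp70 thus moved by a similar step, well under that of the inducible copies.

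Dnajb1 gave 74.4, 90.0, 71.0, 72.7 and 69.4 CPM at 9 months, against 51.8, 53.2, 67.9, 69.6 and 67.8 CPM at 2 months. At 2 months replicates 1 and 2 lay below replicates 3 to 5. Replicate 2 stood out at 9 months, the lowest 9 month library lay within the 2 month range, and the log2 fold change was 0.28 (SE 0.09, edgeR adjusted p = 0.0442). This call was lost without any 1 of 12 libraries (2 months replicates 1 and 2, 9 months replicates 1 to 4, 15 months replicates 2 and 3, and 24 months replicates 1, 3, 4 and 5), with adjusted p of 0.0512 to 0.111. It was also lost with total counts (0.057), without the low count filter (0.0717) and with log2 Alb, a liver transcript, as a covariate (0.0532).

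Of the Hsp90 genes, Hsp90ab1 gave 1595, 1661, 1600, 1705 and 1617 CPM at 9 months, against 1505, 1489, 1577, 1543 and 1557 CPM at 2 months. The groups did not overlap, though the step was small, at a log2 fold change of 0.09 (SE 0.03, edgeR adjusted p = 0.0267). That call did not survive leaving out replicate 2 or 4 of 9 months, or replicate 1 or 2 of 2 months (0.0561 to 0.0825) and with scaling by total counts (0.0761). Its inducible paralog Hsp90aa1 averaged 195 ± 14.1 CPM at 9 months and 197 ± 4.18 CPM at 2 months (SD, n = 5 each). The log2 fold change of -0.02 had a 95% interval of -0.12 to 0.09, which leaves out a rise as large as that of Hspa8. Of its 50-base windows, 51.5% also occur in the pseudogene Gm12346.

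Bag3 gave 13.7, 12.4, 11.3, 10.8 and 8.68 CPM at 9 months, against 8.01, 8.42, 9.12, 10.2 and 8.18 CPM at 2 months. Replicate 5 lay within the 2 month range, and the log2 fold change was 0.38 (SE 0.10, edgeR adjusted p = 0.0136). Hspb1, at 2.06 ± 0.489 CPM at 9 months and 1.499 ± 0.166 CPM at 2 months (SD, n = 5 each), had a log2 fold change of 0.44 that did not pass (edgeR adjusted p = 0.129). Hspe1 averaged 15.9 ± 0.946 CPM at 9 months and 14.5 ± 0.690 CPM at 2 months (SD, n = 5 each), with a log2 fold change of 0.13 (edgeR adjusted p = 0.148).

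Counted together, 7 of 10 chaperones rose and 0 fell between 2 and 9 months, where 7.76% of all genes tested rose and 6.79% fell. Hspa1a and Hspa1b count as 2 of the 10 here and below, though their reads cannot be placed with certainty. At an unadjusted edgeR p under 0.05 the count was 9 higher and 0 lower. Here and below, the share of all genes at an unadjusted p was not counted. The libraries of both ages did not overlap for 5 of the 10, each higher at 9 months, against 5.24% of all genes higher in this way and 4.57% lower. The median log2 fold change was 0.33 over the chaperones and -0.01 over all genes. In a fit that also held the 5 libraries of 30 months, 3 passed (Hspa1a, Hspa1b and Hspa8), where 1.2% of all genes rose and 1.17% fell. Smooth muscle markers were lower at 9 than at 2 months in 3 of 3 genes (Acta2, Tagln and Myh11), with sums of 34.8 to 48.4 CPM at 9 months and 48.2 to 71.2 CPM at 2 months. Also lower were 1 endothelial gene of 4 (Tek, log2 fold change -0.35) and 1 oligodendrocyte gene of 3, and none of the neuronal, astrocyte, microglial, liver, choroid plexus or red blood cell markers passed. Their part in the chaperone values was not tested.

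**Figure D3:**
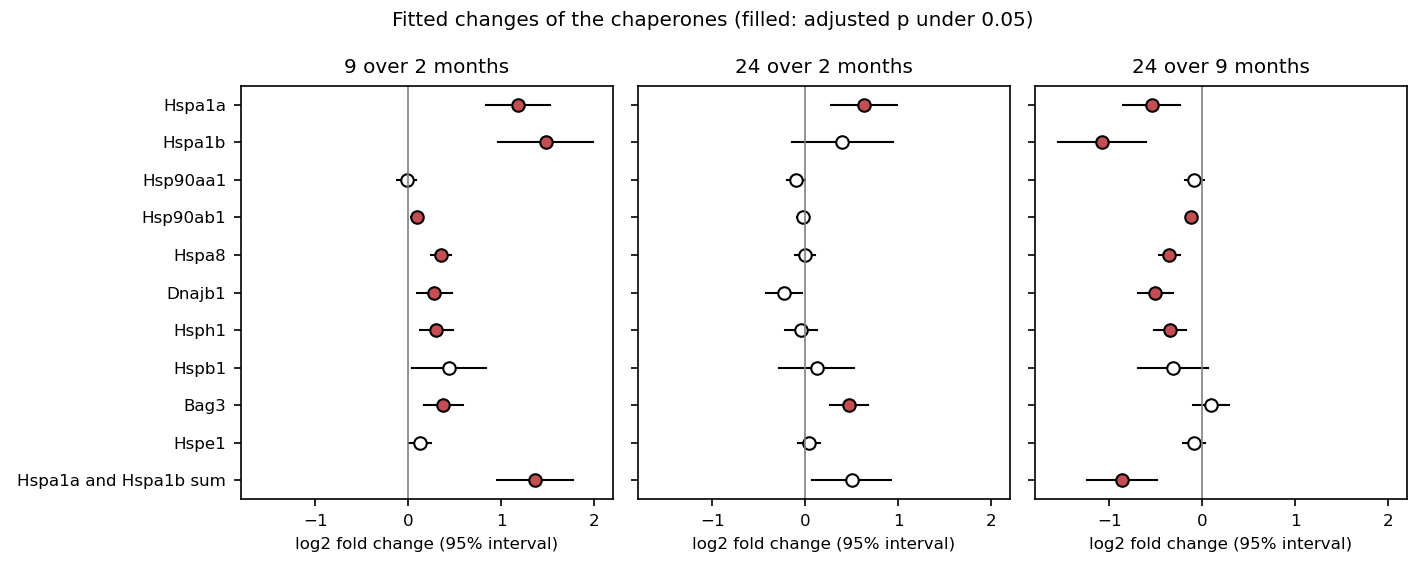
Fitted log2 fold changes (points) with 95% intervals (lines) for each chaperone and the sum of Hspa1a and Hspa1b, for 9 over 2, 24 over 2 and 24 over 9 months. Filled points have an adjusted p under 0.05 over all 17799 genes: 7 genes at 9 over 2 months, all to the right of 0, 2 at 24 over 2 months, and 6 at 24 over 9 months, all to the left.

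Between 9 and 24 months 6 of the 10 chaperones fell and none rose, where 15.1% of all genes fell and 15.2% rose. The 6 were Hspa1b (log2 fold change -1.08), Hspa1a (-0.55), Dnajb1 (-0.51), Hspa8 (-0.35), Hsph1 (-0.35) and Hsp90ab1 (-0.12), with edgeR adjusted p of 6.98e-05 to 0.00726. For all 6 each library of 24 months lay below each of 9 months, against 9.33% of all genes lower in this way and 8.41% higher. In the fit with all 25 libraries 3 fell, Hspa1b, Dnajb1 and Hspa8, where 3.52% of all genes fell and 5.31% rose. Dnajb1 gave 55.5, 49.2, 53.1, 54.7 and 53.2 CPM at 24 months, a narrower range than the 69.4 to 90.0 CPM at 9 months. Hspa8 gave 285, 298, 286, 296 and 309 CPM at 24 months, within the range of 2 months. The median log2 fold change was -0.33 over the chaperones and 0.01 over all genes. This comparison and that of 9 with 2 months share the 9 month libraries and are not independent of each other.

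All 6 liver markers tested were higher at 24 than at 9 months, with sums of 47.8 to 215 CPM at 24 months and 2.12 to 31.4 CPM at 9 months. With log2 Alb (serum albumin) as a covariate Hspa1a lost its call (log2 fold change -0.42, edgeR adjusted p = 0.14), and Hspa1b, Dnajb1, Hspa8, Hsph1 and Hsp90ab1 kept theirs. Smooth muscle markers were higher at 24 months in 2 of 3 genes, oligodendrocyte markers in 2 of 3 and choroid plexus markers in 1 of 5, and 1 of 3 neuronal markers was lower. Their part was not tested.

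At 15 months the group stood between these ends. Against 9 months 3 of 10 fell, Dnajb1 (log2 fold change -0.32), Hspa8 (-0.24) and Hsp90ab1 (-0.10), where 6.84% of all genes fell, and none rose, where 3.89% did. With the GC correction Dnajb1 (edgeR adjusted p = 0.0714) and Hsp90ab1 (0.0858) lost theirs, and the calls over all genes numbered 943 (470 lower) in place of 1910 (1218 lower). Hsp90ab1 also lost its call with RLE factors (0.054), total counts (0.0636) and the liver covariate (0.0612), and Dnajb1 without the low count filter (0.0534). In the fit of all 25 libraries none of the 3 passed, and leaving out any 1 of 4 libraries ended the call of Dnajb1 and any 1 of 5 that of Hsp90ab1 (up to 0.0952). Dnajb1 gave 67.6, 60.6, 62.7, 55.1 and 56.2 CPM at 15 months, all below the 9 month libraries. Against 2 months 3 of 10 rose, Hspa1b (0.89), Hspa1a (0.80) and Bag3 (0.33), where 5.31% of all genes rose, and none fell, where 7.3% did. The Bag3 call was lost without any 1 of 8 of the 10 libraries of 15 and 2 months (adjusted p of 0.055 to 0.0944). That of Hspa1b ended when replicate 1 or 2 of 15 months, or replicate 2 or 4 of 2 months, was left out (0.063 to 0.0717). Both calls were also lost without the low count filter (0.0629 for Hspa1b and 0.0658 for Bag3), and that of Bag3 with the liver covariate (0.0781).

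The 15 month libraries were spread widely. Hsph1 gave 515, 474, 458, 392 and 392 CPM, Hspa8 gave 350.4, 335, 323.9, 289 and 295 CPM, and Hspb1 gave 3.07, 1.61, 1.99, 1.41 and 1.18 CPM at this age. In each of them replicates 1 to 3 lay above replicates 4 and 5. Hspa5, the Hsp70 of the endoplasmic reticulum, was split in the same way, with 542, 463, 444, 294 and 296 CPM.

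Bag3 kept a level above 2 months. It gave 11.2, 10.6, 12.1, 11.6 and 9.56 CPM at 15 months and 14.1, 10.51, 11.5, 11.5 and 13.1 CPM at 24 months, against 8.01 to 10.2 CPM at 2 months. All 5 libraries of 24 months lay above all 5 of 2 months, with a log2 fold change of 0.47 (SE 0.10, edgeR adjusted p = 0.00145). Hspa1a (0.63, edgeR adjusted p = 0.00827) was the other of 2 chaperones higher at 24 than at 2 months, where 10.8% of all genes were higher, and its call was not shared by the sum with Hspa1b. None was lower, where 11.5% of all genes were at the adjusted threshold. At an unadjusted edgeR p under 0.05, 2 were lower, with no share of all genes counted. The gene 2610306O10Rik overlaps Bag3, and without a stated strand setting reads of such neighbours cannot be told apart; Gm20481 overlaps Hspa1a and Hspd1 overlaps Hspe1. In a test for any difference among 2, 9, 15 and 24 months 7 of the 10 passed, against 44.5% of all genes. Hsp90aa1, Hspb1 and Hspe1 did not (edgeR adjusted p of 0.155 to 0.21).

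Some of the chaperones also varied together between animals of the same age, as did chaperones of the endoplasmic reticulum (below). After removing each age's mean from log2(CPM + 0.5) in the 20 libraries of 2 to 24 months, the sum of Hspa1a and Hspa1b was compared with each of the other 8 genes. Pearson's r was 0.79 for Hsp90ab1 (Spearman's rho 0.80), 0.75 for Hsph1 (0.79), 0.70 for Hspa8 (0.73), 0.65 for Hspb1 (0.57) and 0.64 for Dnajb1 (0.66). Their p-values from 100000 permutations within ages, two-sided and adjusted over the 8 relations, were 0.0055 to 0.0161 for r and 0.0036 to 0.0505 for rho, where Hspb1 was the one above 0.05. Hsp90aa1 (r = 0.51, rho = 0.50), Hspe1 (0.50 and 0.44) and Bag3 (0.36 and 0.29) did not pass (adjusted permutation p of 0.0563 to 0.153 for r and 0.0764 to 0.235 for rho). Unadjusted, the permutation p for r ran between 0.00069 and 0.153 and that for rho between 0.00064 and 0.235.

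Hsp90ab1, whose mean level moved by a log2 fold change of only 0.09 between 2 and 9 months, thus followed the inducible Hsp70 genes most closely within ages. Without the 2 libraries farthest from the median of the sum, r was 0.73 for Hsp90ab1, 0.67 for Hsph1, 0.66 for Hspa8, 0.62 for Hspb1 and 0.54 for Dnajb1. Without the 5 libraries of 15 months, r over the other 15 was 0.66 for Hsp90ab1, 0.57 for Hsph1, 0.55 for Dnajb1, 0.48 for Hspa8 and 0.45 for Hspb1. The points share libraries and the scaling of each library.

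Outside the 10 chaperones, the genes whose within-age course was most like the sum, of 13490 with a mean of at least 2 CPM, were Zbtb33 (r = 0.87), Sdcbp (0.85), Ina (0.83), Dnaja1 (0.83), Ralgps2 (0.82) and 1700123O20Rik (0.81). They include Dnaja1, a DnaJ partner of Hsp70, and Ina, the neuronal intermediate filament internexin. The endoplasmic reticulum chaperones read below had r between 0.59 (Hyou1) and 0.78 (Sdf2l1), which spans the values of Hsph1, Hspa8, Hspb1 and Dnajb1. Among the 13490 genes, Hsp90ab1 ranked 11 and Bag3 1814 from the top. These likenesses describe the 20 libraries and carry no test.

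Further members of the chaperone machinery were read from lists chosen with earlier results known, over the same comparisons. Their counts are to be read against all genes, of which 7.76% rose and 6.79% fell between 2 and 9 months, and 15.2% rose and 15.1% fell between 9 and 24 months. Of 20 co-chaperones, which tune Hsp70 and Hsp90, 8 rose between 2 and 9 months and 0 fell, with a median log2 fold change of 0.11. Stip1, the adaptor that hands clients from Hsp70 to Hsp90, averaged 224 ± 10.8 CPM at 9 months and 179 ± 9.54 CPM at 2 months (SD, n = 5 each; log2 fold change 0.32, edgeR adjusted p = 0.000243). Chordc1, an Hsp90 co-chaperone, reached 82.1 ± 6.00 CPM at 9 months, against 59.4 ± 3.76 CPM at 2 months (SD, n = 5 each; log2 fold change 0.47, edgeR adjusted p = 0.000376). Fkbp4, an immunophilin of steroid receptor complexes, had a log2 fold change of 0.24. At 24 against 9 months 10 of the 20 fell and 1 rose, Chordc1 by -0.52 and Ahsa2, an activator of the Hsp90 ATPase, by -0.43.

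Of 16 further Hsp70, Hsp110 and DnaJ genes 7 rose between 2 and 9 months and 0 fell. Dnaja4 averaged 37.1 ± 1.35 CPM at 9 months and 29.0 ± 0.984 CPM at 2 months (SD, n = 5 each; log2 fold change 0.35, edgeR adjusted p = 7.22e-07). Hspa2, an Hsp70 best known from the testis (log2 fold change 0.33), and Dnaja1 (0.21) rose too. Between 9 and 24 months 9 of the 16 fell and 0 rose, with Dnaja4 at -0.32 and Dnaja1 at -0.29. Hspa14 was not used here.

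Of 7 small heat shock proteins 1 rose and 1 fell between 2 and 9 months. Cryab, the alpha-B crystallin of glia and muscle, rose (log2 fold change 0.38, edgeR adjusted p = 0.00509), and Hspb3, at about 1 CPM, fell (-0.58, edgeR adjusted p = 0.04998). Hspb11 (0.18) did not pass, and at 24 against 9 months none did (1 at an unadjusted edgeR p under 0.05), with Hspb6 at 0.25 and Cryab at -0.17. Of 11 chaperonins and mitochondrial chaperones none passed between 2 and 9 months, with Cct3 at 0.07, Cct5 at 0.06 and Cct7 at 0.06, and 3 had an unadjusted edgeR p under 0.05. At 24 against 9 months 2 of the 11 fell, Cct5 (-0.09) and Cct3 (-0.09), near the 15.1% of all genes that fell.

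The transcription factors themselves also changed between 2 and 9 months, with log2 fold changes of -0.16 to 0.20. Hsf1, the master regulator, averaged 39.7 ± 2.05 CPM at 9 months and 34.7 ± 1.88 CPM at 2 months (SD, n = 5 each; log2 fold change 0.19, edgeR adjusted p = 0.0129). Hsf4, known from the lens, rose (0.20, edgeR adjusted p = 0.00539) and Hsf2 fell (-0.16, edgeR adjusted p = 0.0198), which makes 2 of 4 genes higher and 1 lower. Between 9 and 24 months Hsf4 rose again (0.21), and 2 of the 4 fell, Hsf1 (-0.19) and Hsbp1 (-0.12), a binder of heat shock factor trimers.

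Chaperones of the endoplasmic reticulum, a compartment with its own stress response, shared the course. Of 12 genes 11 rose between 2 and 9 months and 0 fell, with a median log2 fold change of 0.49, larger than that of the cytosolic genes. Calr, which folds glycoproteins, averaged 396 ± 25.3 CPM at 9 months and 282 ± 7.93 CPM at 2 months (SD, n = 5 each; log2 fold change 0.49, edgeR adjusted p = 6.47e-05). Creld2 (0.64) and Hyou1, the Hsp110 of this compartment (0.30), rose as well. At 24 against 9 months 10 of the 12 fell and 0 rose, with Creld2 at -0.58 and Calr at -0.30. The difference between the compartments was not tested.

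Cirbp, an RNA-binding protein known to be induced by mild cold and lowered by heat, ran the opposite way. It gave 37.7, 32.1, 34.2, 30.9 and 42.9 CPM at 9 months, against 58.2, 54.9, 54.2, 48.6 and 53.9 CPM at 2 months. The groups did not overlap, and the log2 fold change was -0.60 (SE 0.10, edgeR adjusted p = 0.000881). At 24 months it gave 77.5, 63.6, 71.7, 61.5 and 61.1 CPM, all above the libraries of 2 and 9 months (log2 fold change over 9 months 0.92, edgeR adjusted p = 7.12e-06). Rbm3, the other cold-inducible gene read, did not pass (-0.21 and 0.01). Within ages r with the Hspa1a and Hspa1b sum was -0.58 for Cirbp and -0.19 for Rbm3. Over the clock genes read below, this r ran between -0.51 (Dbp) and 0.72 (Per2), with Arntl at 0.55 and Nr1d1 at -0.02. These r values carry no test.

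Of 14 clock genes 3 rose, 4 fell and 7 did not pass between 2 and 9 months. Nr1d1, the repressor REV-ERBα, gave 98.5, 104, 98.1, 87.9 and 99.7 CPM at 9 months, against 137, 126, 130.4, 128 and 144 CPM at 2 months. Its groups were apart (log2 fold change -0.45, edgeR adjusted p = 1.59e-07), as were those of Arntl, the activator BMAL1, which rose (0.32, edgeR adjusted p = 1.77e-05). Dbp, a clock output factor, averaged 25.6 ± 2.45 CPM at 9 months and 44.9 ± 3.62 CPM at 2 months (SD, n = 5 each; log2 fold change -0.81). At 24 against 9 months 3 of the 14 rose and 6 fell, with Nr1d1 at 0.46 and Arntl at -0.32. At 24 against 2 months 1 of the 14 was higher and 5 were lower, with a median log2 fold change of -0.10. The part of Cirbp or of the clock genes in the chaperone values was not tested.

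**Figure D4:**
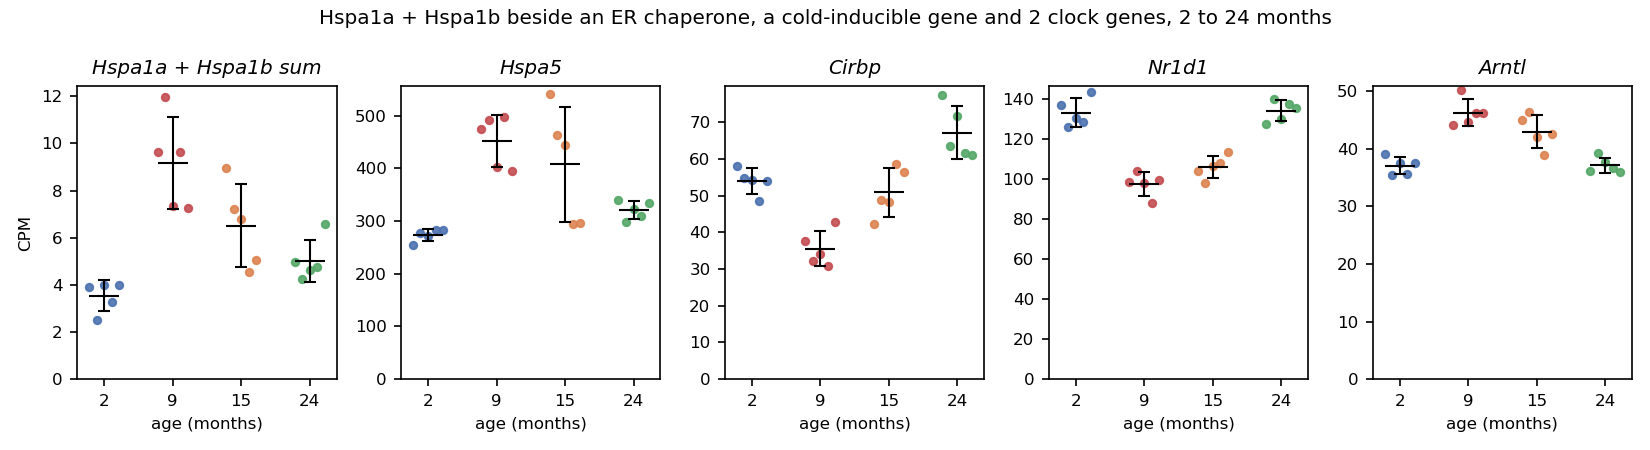
CPM in each library (points) with mean and SD of 5 libraries (black) at 2, 9, 15 and 24 months for the sum of Hspa1a and Hspa1b, the endoplasmic reticulum chaperone Hspa5, the cold-inducible Cirbp and the clock genes Nr1d1 and Arntl. All axes start at 0. The means of Cirbp and Nr1d1 are lowest at 9 months, where those of the chaperones and Arntl are highest.

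Genes of neuronal activity and stress hormones were read beside these. Of 11 immediate early genes, which rise within minutes of neuronal activity, none passed between 2 and 9 months, with Btg2 at -0.66, Fos at -0.67 and Npas4 at -0.49. None passed at 24 against 9 months, with Egr1 at -0.52 and Egr2 at -0.77, and at an unadjusted edgeR p under 0.05 the count was 0 of 11 in both comparisons. Their sums varied widely within ages, at 485 to 1018 CPM at 9 months and 330.0 to 1127 CPM at 2 months. The 2 month sums were 330.0 and 374 CPM in replicates 1 and 2 and 1049 to 1127 CPM in replicates 3 to 5. Of 12 glucocorticoid response genes 1 rose between 2 and 9 months, the cell cycle inhibitor Cdkn1a (0.47, edgeR adjusted p = 0.0313), near the 7.76% of all genes that rose, and Nfkbia (-0.21) and Zbtb16 (0.25) did not pass. Later, at 24 against 9 months, Cdkn1a fell (-0.50) and Arrdc2 rose (0.35), 1 of 12 each way.

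At 30 months Hsp90aa1 and Hsph1 were lower, and Bag3 and the inducible Hsp70 genes higher, than at 2 months as counted. Of the 10 chaperones 3 rose and 2 fell, where 28.5% of all genes rose and 29.5% fell. Hsp90aa1 gave 128, 39.2, 31.5, 37.1 and 22.9 CPM at 30 months, against 174 to 218.1 CPM in the 20 libraries of the other ages. Replicate 1, the library without the GC gap, lay far above the other 4 and still below every younger library. The log2 fold change over 2 months was -1.93 as counted (SE 0.27, edgeR adjusted p = 7.67e-06) and -1.60 with the GC correction. From replicate 1 alone it was -0.62 (edgeR adjusted p = 9.25e-05), with that lone library assumed to vary like the other ages.

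The pseudogene Gm12346, which shares windows with Hsp90aa1, stood at 1.46 to 10.6 CPM at 30 months and at 10.8 to 17.3 CPM at the other ages. Hsph1 gave 312, 241, 226, 239 and 151 CPM at 30 months, all below the younger libraries, again with replicate 1 the highest. Its log2 fold change over 2 months was -0.80 as counted (edgeR adjusted p = 1.24e-05), -0.66 with the GC correction, and -0.38 from replicate 1 alone, which did not pass (adjusted p = 0.138). Against 24 months Hsp90aa1 was at -1.82 and Hsph1 at -0.75 as counted, at -1.53 and -0.63 with the correction, and at -0.52 and -0.34 from replicate 1, of which only Hsp90aa1 passed (adjusted p = 0.00115).

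**Figure D5:**
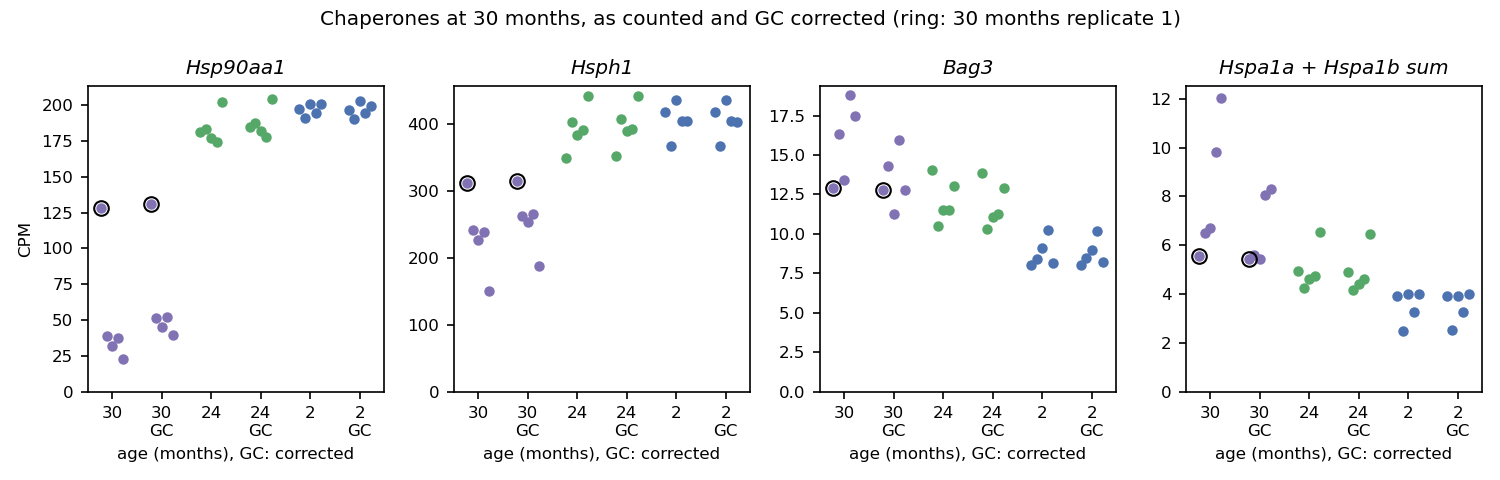
CPM of Hsp90aa1, Hsph1, Bag3 and the Hspa1a and Hspa1b sum in each library at 30, 24 and 2 months, as counted and with the GC correction (GC). The ring marks 30 months replicate 1, which has no GC gap. For Hsp90aa1 and Hsph1 all 5 libraries of 30 months lie below those of 24 and 2 months under both readings, with replicate 1 closest to them.

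Bag3 gave 12.9, 16.3, 13.4, 18.8 and 17.5 CPM at 30 months, all above the 2 month libraries. Its log2 fold change over 2 months was 0.84 as counted (edgeR adjusted p = 6.3e-06) and 0.61 with the GC correction, where it passed too. From replicate 1 alone it was 0.56, and a lone library gives no spread of its own. Against 24 months the log2 fold change of Bag3 was 0.37 as counted (edgeR adjusted p = 0.00725). It was 0.17 with the correction, which did not pass, and 0.09 from replicate 1.

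The sum of Hspa1a and Hspa1b gave 5.56, 6.50, 6.71, 9.83 and 12.05 CPM at 30 months, all above the 2 month libraries. Its log2 fold change over 2 months was 1.18 as counted, 0.87 with the GC correction (edgeR adjusted p = 0.0011) and 0.63 from replicate 1 alone (adjusted p = 0.303). Against 24 months it was 0.68 as counted (adjusted p = 0.00696; Hspa1a and Hspa1b alone lost their calls without 30 months replicate 5, at 0.0514 and 0.0736), 0.41 with the correction (0.0893) and 0.13 from replicate 1 (0.908). Dnajb1 gave 56.6, 66.8, 70.5, 80.5 and 78.3 CPM at 30 months, against 49.2 to 55.5 CPM at 24 months. Its log2 fold change over 24 months was 0.41 as counted, 0.29 with the correction (adjusted p = 0.00843) and 0.09 from replicate 1 (0.855).

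Hspa8 gave 181 CPM in replicate 5 and 274 to 299.9 CPM in the other 4 libraries of 30 months. It did not pass against 2 or 24 months as counted (log2 fold changes -0.14 and -0.14), nor did Hsp90ab1 (0.03 and 0.06) or Hspb1 (0.52 and 0.40). With the GC correction the mean of Hspa8 at 30 months was 315 CPM, above the 295 CPM of 2 months and the 298 CPM of 24 months. The lower level of Hspa8 as counted thus did not hold with the correction. Corrected means of Hsp90ab1 were 1500.3 CPM at 30 months, 1533 CPM at 2 months and 1495 CPM at 24 months. Those of Hspb1 were 1.68, 1.496 and 1.59 CPM in the same order. Hspe1 was at -0.02 as counted and at 0.27 with the GC correction against 2 months, where it passed (edgeR adjusted p = 0.0268), and at -0.15 from replicate 1. With the correction 4 of 10 chaperones were higher and 2 lower than at 2 months, where 24.3% of all genes were higher and 21.3% lower. From replicate 1 alone Bag3 was higher and Hsp90aa1 lower, where 4.19% of all genes were higher and 3.08% lower.

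Against 24 months 4 of 10 were higher and 2 lower as counted, where 25.5% of all genes were higher and 29% lower. Liver markers were lower at 30 than at 24 months in 4 of 6 genes, with sums of 1.29 to 156 CPM at 30 months and 47.8 to 215 CPM at 24 months. With the liver covariate Hspa1a (edgeR adjusted p = 0.27), Hspa1b (0.136) and Bag3 (0.131) lost their calls, and Dnajb1, Hsp90aa1 and Hsph1 kept theirs. Of 3 neuronal markers 1 was higher and 2 were lower, with sums of 3371 to 5117 CPM at 30 months and 4457 to 4919 CPM at 24 months. Astrocyte markers were lower in 2 of 3 genes (sums of 770.2 to 1006 CPM at 30 months and 1031 to 1119 CPM at 24 months), and of 3 microglial markers 2 were higher and 1 was lower (214 to 252.7 CPM at 30 months and 206 to 231 CPM at 24 months). Oligodendrocyte and smooth muscle markers had 1 of 3 called in each direction, 1 of 4 endothelial markers was lower, and no choroid plexus or red blood cell marker passed. Against 2 months, neuronal, astrocyte, oligodendrocyte, microglial, endothelial and smooth muscle markers were called too, and no liver marker was. Apart from the liver covariate, their part in the chaperone values was not tested. With the correction Dnajb1 alone was higher, with Hsp90aa1 and Hsph1 lower, where 21.7% of all genes were higher and 19.6% lower. From replicate 1 alone Hsp90aa1 was lower and no chaperone was higher, where 0.809% of all genes were lower and 1.52% higher. Hsp90aa1 was thus lower in the library without the GC gap, and lower still in the 4 with it. The age of 30 months and whatever set these 4 libraries apart cannot be told apart by the labels.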

How the data were processed

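The submitters' processing notes name CASAVA 1.7, STAR 2.4.1d, featureCounts 1.4.6-p4 and the build GRCm38. The deposited counts per Ensembl gene are not normalized. The role of each tool, the annotation release, and the strand and multi-mapping settings are not given in the sources used here. The deposited RPKM values were not used: in 0% of 10866 genes checked were they scaled by their own libraries' totals (tolerance 5%). Symbols, positions and lengths come from GENCODE M21 (47310 of 47729 identifiers matched).

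Counts were fitted in R 4.3.3 with edgeR 4.0.16 (filterByExpr and TMM on 25 libraries, robust quasi-likelihood F tests, 1 mean per age). Comparisons among 2 to 24 months used 20 libraries, those with 30 months all 25. P-values were adjusted by Benjamini and Hochberg over 17799 genes at 0.05. The SE is the log2 fold change over the square root of F. The GC correction is an offset from a lowess curve (span 0.3) of each library's log2 ratio to the 2 month mean against transcript GC content. DESeq2 1.42.0 served as an alternative. The tests were tried on simulated counts. Depth was 17800113 to 31261121 counts per library, with 5 libraries per age.

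All 10 chaperones are described. From each further list up to 3 genes are named by smallest p at 9 with 2 months and up to 2 at 24 with 9 months, and the 6 genes most like the Hspa1a and Hspa1b sum. Genes named beyond this rule (Hspa5, Tek, Per2 and Sdf2l1, and within ages Cirbp, Rbm3, Hyou1 and clock genes) were chosen after their values were seen. The chaperones and lists were chosen with earlier results of these data known.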

Additional observations from a re-analysis of the deposited data

Results flagged for a closer look

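Of 55 sets of 5 libraries (10 chaperones and the Hspa1a and Hspa1b sum at 5 ages), 4 held a library whose gap to the nearest other exceeded Dixon's 95% limit, where chance gives about 1 in 20. Hspa1a stood at 4.49 CPM in 9 months replicate 2, against 2.97 to 3.29 CPM in the other 4 libraries of that age. Dnajb1 stood at 90.0 CPM in the same library, against 69.4 to 74.4 CPM. Hsp90aa1 stood at 128 CPM in 30 months replicate 1, against 22.9 to 39.2 CPM. Hspa8 stood at 181 CPM in 30 months replicate 5, against 274 to 299.9 CPM.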

How the results depend on the processing

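No paired analysis was possible because replicates were numbered by accession order, which pairs no animals. With all 25 libraries in 1 fit the chaperones called numbered 3 (9 with 2 months), 1 (15 with 2), 1 (24 with 2), 0 (15 with 9) and 3 (24 with 9), with 423, 224, 931, 3 and 1572 of all genes in place of 2589, 2245, 3972, 1910 and 5390. Without 30 months replicates 2 to 5 they numbered 2 (30 with 2) and 1 (30 with 24), with 1293 and 415 of all genes in place of 10324 and 9701. With the GC correction they numbered 1 (15 with 9) and 3 (30 with 24), and Hspe1 at 30 with 2 months was 0.27. Without the low count filter 1 was called at 15 with 2 months, and with the liver covariate 3 at 30 with 24 months. The GC correction gave 1442 genes in place of 2245 at 15 with 2 months (783 higher in place of 945) and 943 in place of 1910 at 15 with 9 (473 higher in place of 692). The liver covariate gave 2067 genes in place of 3972 at 24 with 2 months and 3186 in place of 5390 at 24 with 9. The other counts of chaperones, DESeq2 and RLE factors included, stayed within 1.5 times.

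Leaving out 1 library gave 4 to 7 chaperones (9 with 2), 1 to 3 (15 with 2), 2 to 3 (24 with 2), 1 to 4 (15 with 9), 6 to 7 (24 with 9), 5 to 6 (30 with 2), 4 to 7 (30 with 24) and 7 to 8 (any age). Of all genes called, 960 of 2719 rose at 9 with 2 months with total counts (1381 of 2589 with TMM), 1188 of 2196 at 15 with 2 with RLE factors (945 of 2245), 1116 of 1928 at 15 with 9 (692 of 1910) and 3720 of 5545 at 24 with 9 (2700 of 5390) with total counts. Without the 15 month libraries, a setting chosen after seeing the data, r with the Hspa1a and Hspa1b sum moved to 0.48 (Hspa8), 0.45 (Hspb1) and 0.25 (Hspe1). Relations within a single age were not run, since 5 libraries are too few. Low counts limit Hspa1a, Hspa1b and Hspb1, at 21 to 175 per library.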
